A study of Mus musculus with 564 samples.

Results

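The formyl peptide receptor genes Fpr1, Fpr2 and Fpr3 stand next to each other on mouse chromosome 17. The deposited H3K27ac table lists 59190 cis-regulatory elements (CREs), and 14 of them have their centre within 25 kb of a RefSeq start of Fpr1, Fpr2 or Fpr3 on build mm10. They were numbered E1 to E14 along the chromosome. The cluster was picked because it holds a CRE whose acetylation rose after LPS in vehicle-treated cells, so the LPS values of those cells are given as a description, without a test. Acetylation of histone H3 at lysine 27 marks active promoters and enhancers, and was measured by ChIP-seq. The cells were bone marrow-derived macrophages (BMDMs) grown from wild type male C57/BL6 mice 6 to 8 weeks old. All of them were pre-treated for 1 h, with DMSO as vehicle or with 1 of 58 clinical kinase inhibitors (CKIs), each at a concentration of its own. They then received no stimulus (UT), lipopolysaccharide (LPS) or the cytokine IL-4, the latter pair at 10 ng/mL, and stimulated cells were collected after 30 min, 1 h, 2 h and 4 h. The UT samples of the inhibitors are labelled as 4 h without stimulus but titled as time 0, so when they were collected is unclear. Each of the 9 DMSO groups has 2 libraries, and the 546 inhibitor libraries form 474 groups with 1 library and 36 with 2.

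Formyl peptide receptors are G protein-coupled receptors of myeloid cells. They bind peptides that start with formylmethionine, which bacteria and damaged mitochondria release, as well as host peptides and lipids. Through the inhibitory G protein they drive chemotaxis, calcium release and the oxidative burst. LPS is sensed by TLR4 and turns on inflammatory genes in macrophages, whereas IL-4 acts through JAK kinases and STAT6 and turns on a different programme.

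Fpr1 is read on the minus strand, Fpr2 and Fpr3 on the plus strand. E1 to E3 lie downstream of Fpr1 over Gm36907, and E4 lies between that gene and Fpr1. E5 overlaps an exon of Fpr1 at chr17:17877510-17879431, E6 is in its intron at chr17:17882044-17883633, and E7 is centred 1029 bp upstream of its start at chr17:17884116-17885820. E8, at chr17:17887002-17888992, covers the Fpr2 start and E9 is in the Fpr2 intron. E10 to E13 follow between Fpr2 and Fpr3 and lie in no RefSeq gene. E11, the CRE that reached the highest LPS value, spans 4105 bp at chr17:17898654-17902758. It is a member through the start of Fpr2, 12882 bp away. Only the GENCODE M21 span of the gene Fpr3, which also overlaps E8, places it in Fpr3. E14, at chr17:17972817-17974390, is the 1 member beside the RefSeq start of Fpr3. No CRE covers the start of Fpr1 or of Fpr3. The members at the edge of the 25 kb window are E1, 23616 bp from a start, and E13, 22488.5 bp from one, and the nearest CRE outside it lies 27290.5 bp from the Fpr2 start. That CRE had 6 and 2 in the UT libraries and 138 and 149 at 2 h of LPS.

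The sequences below are those of E11, which reached the highest LPS value of the 14 CREs, and of the promoter window covered by E8, with the sequence at the centre of E7 next to Fpr1. They are written 5′ to 3′ from GRCm38.p6, and capitals mark matches on either strand to 6 motifs: GGG and TTTCC with any 2 bases between them for NF-kB, TGANTCA for AP-1, GAAA and GAAA with any 2 bases between them for IRF, GAGGAAG for PU.1, TTGCNNAA for C/EBP, and TTC and GAA with any 4 bases between them for STAT factors. The first is the middle 300 bases of E11 on the plus strand, chr17:17900556-17900855.
E11 centre: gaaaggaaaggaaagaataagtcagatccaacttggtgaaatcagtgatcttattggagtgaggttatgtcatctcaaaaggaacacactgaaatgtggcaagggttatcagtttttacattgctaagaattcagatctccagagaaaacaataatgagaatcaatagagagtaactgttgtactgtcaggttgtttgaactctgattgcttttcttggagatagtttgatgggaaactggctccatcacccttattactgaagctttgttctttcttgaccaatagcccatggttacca
The next lines are 30-base stretches of E11 around its C/EBP matches, chr17:17900950-17900979 and chr17:17900959-17900988, which overlap, and around its STAT match, chr17:17901490-17901519.
E11 C/EBP match 1: atgaggccctgTTGCACAAtttatgcaaac
E11 C/EBP match 2: tgttgcacaatTTATGCAAacccaaaggaa
E11 STAT match 1: tcattcacttTTCCTGTGAAttcagagtta
The last 2 are the RefSeq promoter window of Fpr2 on the plus strand, chr17:17887574-17887873, and the middle 300 bases of E7 on the plus strand, chr17:17884818-17885117.
Fpr2 promoter: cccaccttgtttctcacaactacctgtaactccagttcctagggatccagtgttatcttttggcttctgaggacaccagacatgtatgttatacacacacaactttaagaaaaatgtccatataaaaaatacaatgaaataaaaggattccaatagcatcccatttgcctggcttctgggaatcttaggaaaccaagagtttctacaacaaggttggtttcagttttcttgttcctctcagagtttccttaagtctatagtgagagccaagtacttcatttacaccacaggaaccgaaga
E7 centre: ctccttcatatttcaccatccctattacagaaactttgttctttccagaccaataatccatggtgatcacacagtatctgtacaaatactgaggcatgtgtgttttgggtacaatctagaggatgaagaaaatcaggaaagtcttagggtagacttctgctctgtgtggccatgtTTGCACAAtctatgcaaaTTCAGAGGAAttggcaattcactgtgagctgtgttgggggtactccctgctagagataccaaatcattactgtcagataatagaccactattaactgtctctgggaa
The whole of E11 held 2 C/EBP matches and 1 STAT match and none of the other 4 motifs. In windows of the same 4105 bases at the centre of all 59190 CREs, 82.0% held a C/EBP match, 67.9% a STAT match, 74.4% an AP-1 match and 17.4% an NF-kB match. The 3 Fpr promoter windows held no match to any of the 6 motifs, and of 32851 RefSeq promoter windows of 300 bases 10.8% held a C/EBP match and 1.63% an NF-kB match. The centre of E7 held 1 C/EBP and 1 STAT match, which 14.7% and 9.22% of all CRE centres of 300 bases held. These are letter matches in fixed windows and not measured binding. Of the 51-base words in the members, at most 6.62% (E6) occurred more than once in the genome, and 3.40% in E11.

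The values are scaled read counts rounded to whole numbers by the authors. Depth in CREs, from the value of 1 read, was put at 2.35e+06 to 5.41e+06 reads for 16 of the 18 DMSO libraries. Inhibitor libraries were shallower, with a median of 1.86e+06 reads (532 of 546 libraries), and had lower contrast between strong and weak CREs, with a median ratio of 17.6 against 75.1 in DMSO. The inhibitors form 6 runs of neighbouring columns that share no compound, with medians of 8.94e+05 to 4.34e+06 reads and contrasts of 11.2 to 35.1. The labels name no batch, and DMSO lies outside the runs. An effect of the inhibitors and any technical difference from the DMSO libraries thus cannot be told apart. All 8 macrophage markers had a CRE over their start, with a median of 334 per kb for Csf1r and 369 per kb for Spi1 over the DMSO libraries. None of 15 T cell, B cell, fibroblast and epithelial markers had one, and of 4 neutrophil markers only S100a8 did, at 1.82 to 21.2 per kb. A further limit is specific to E11. Per the study's methods, chromatin samples were tested by qPCR at a negative control region, an IL-4-controlled CRE and an LPS-activated site that lies inside E11. Failed samples were removed by signal over noise and shearing size, so the libraries may have been selected in part on E11.

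In unstimulated DMSO cells, acetylation across the cluster was low and uneven. E4 was the strongest member per length, with values of 226 and 201 and a mean of 86.4 per kb, followed by E5 with 60.1 per kb (114 and 117). E3, E13 and E11 stood at 32.1, 27.1 and 25.8 per kb, and E8 over the Fpr2 start at 15.8 per kb. E14, beside Fpr3, was at 0 and 3. The strongest CREs before stimulation thus lay on the downstream side of Fpr1, and the Fpr2 start carried less than they did.

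After LPS, all 14 members stood above both UT libraries at 1, 2 and 4 h, and 13 of 14 did so at 30 min. The share of all CREs that lie clear of UT in this way is not given. Under the call used for all CREs (F-test adjusted p below 0.01 and a log2 difference above 1), 29.0% of 50697 CREs were higher after LPS. All 14 members met the same call, and since the cluster was picked on LPS values of these libraries nothing is read from either count. E11 had 120 and 92 in UT, 787 and 778 at 30 min, 1155 and 1067 at 1 h, 1653 and 1601 at 2 h, and 1417 and 1217 at 4 h. The UT and LPS libraries of E11 did not overlap at any time, and the highest mean (1627 ± 36.8, SD, n = 2) was 15.3 times that of UT. On the log2(value + 5) scale, E11 differed from UT by 2.84, 3.34, 3.89 and 3.58 at the 4 times (SE 0.11).

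**Figure D1:**
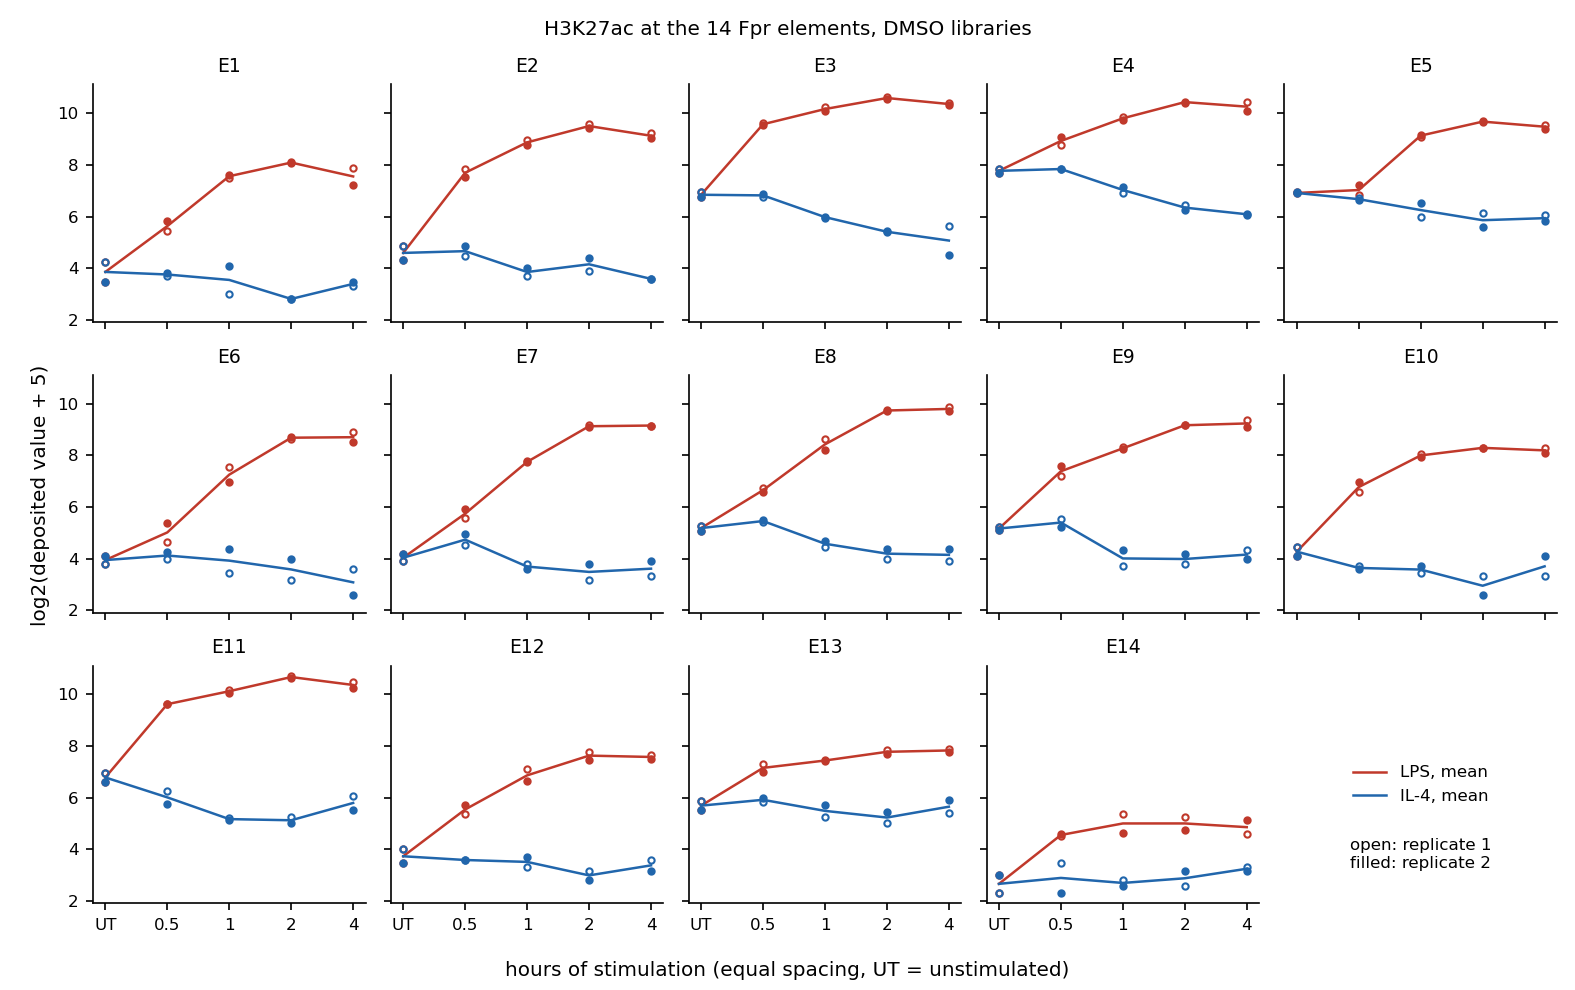
H3K27ac at each of the 14 Fpr CREs in DMSO libraries, as log2(deposited value + 5) against hours of LPS (red) or IL-4 (blue). Points are the 2 libraries of each group and lines join their means. E11 and E3 had most of their LPS rise by 1 h, E6, E7 and E8 rose later, and the IL-4 lines stay far below the LPS lines from 1 h on.

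The members differed in how fast they rose. As a share of the largest LPS rise of its own mean, E11 had reached 44.5% at 30 min, E3 45.4% and E13 51.9%. E14 had reached 64.2%, on values of 18 and 19. On this share the CREs nearest to the starts of Fpr1 and Fpr2 lagged behind, with 4.43% at E6, 6.76% at E7 and 7.52% at E8. E9, in the Fpr2 intron, had reached 23.3%. The lag depends on the measure: as log2 differences at 30 min, E7 (1.71) and E8 (1.47) were above E4 (1.16), and E6 (1.07) was below it. E5, which overlaps Fpr1, had made 1.58% of its rise: its values were 114 and 117 in UT and 109 and 144 at 30 min, which overlap. By 1 h E5 stood at 542 and 572, well clear of UT. The mean was highest at 2 h in 8 members, at 4 h in 5 (E6, E7, E8, E9 and E13) and at 1 h in E14.

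The largest log2 differences were those of E7, upstream of Fpr1. It went from 10 and 13 in UT to 43 and 55 at 30 min, 213 and 208 at 1 h, 575 and 538 at 2 h and 567 and 566 at 4 h. These are log2 differences of 1.71, 3.71, 5.09 and 5.12 (SE 0.18), and all LPS libraries lay above UT. E8, at the Fpr2 start, had 34 and 29 in UT, 102 and 90 at 30 min, 398 and 290 at 1 h, 873 and 829 at 2 h and 935 and 843 at 4 h. Its mean at 4 h was 28.2 times that of UT (log2 difference 4.62, SE 0.16), with no overlap from 30 min on. E6, in the Fpr1 intron, moved like E7, from 9 and 12 in UT to 471 and 362 at 4 h. On the far side, E2 rose from 24 and 15 in UT to 757 and 687 at 2 h (log2 difference 4.91, SE 0.16). E14 beside Fpr3 reached 36 and 20 at 1 h and stayed the weakest member, at 15.6 to 17.8 per kb from 1 to 4 h, while E8 stood at 447 per kb and E4 at 496 per kb at 4 h. The order of the levels had changed: at 2 h of LPS E4, E3, E8, E5, E11 and E2 stood at 557, 449, 427, 423, 396.3 and 396.3 per kb.

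**Figure D2:**
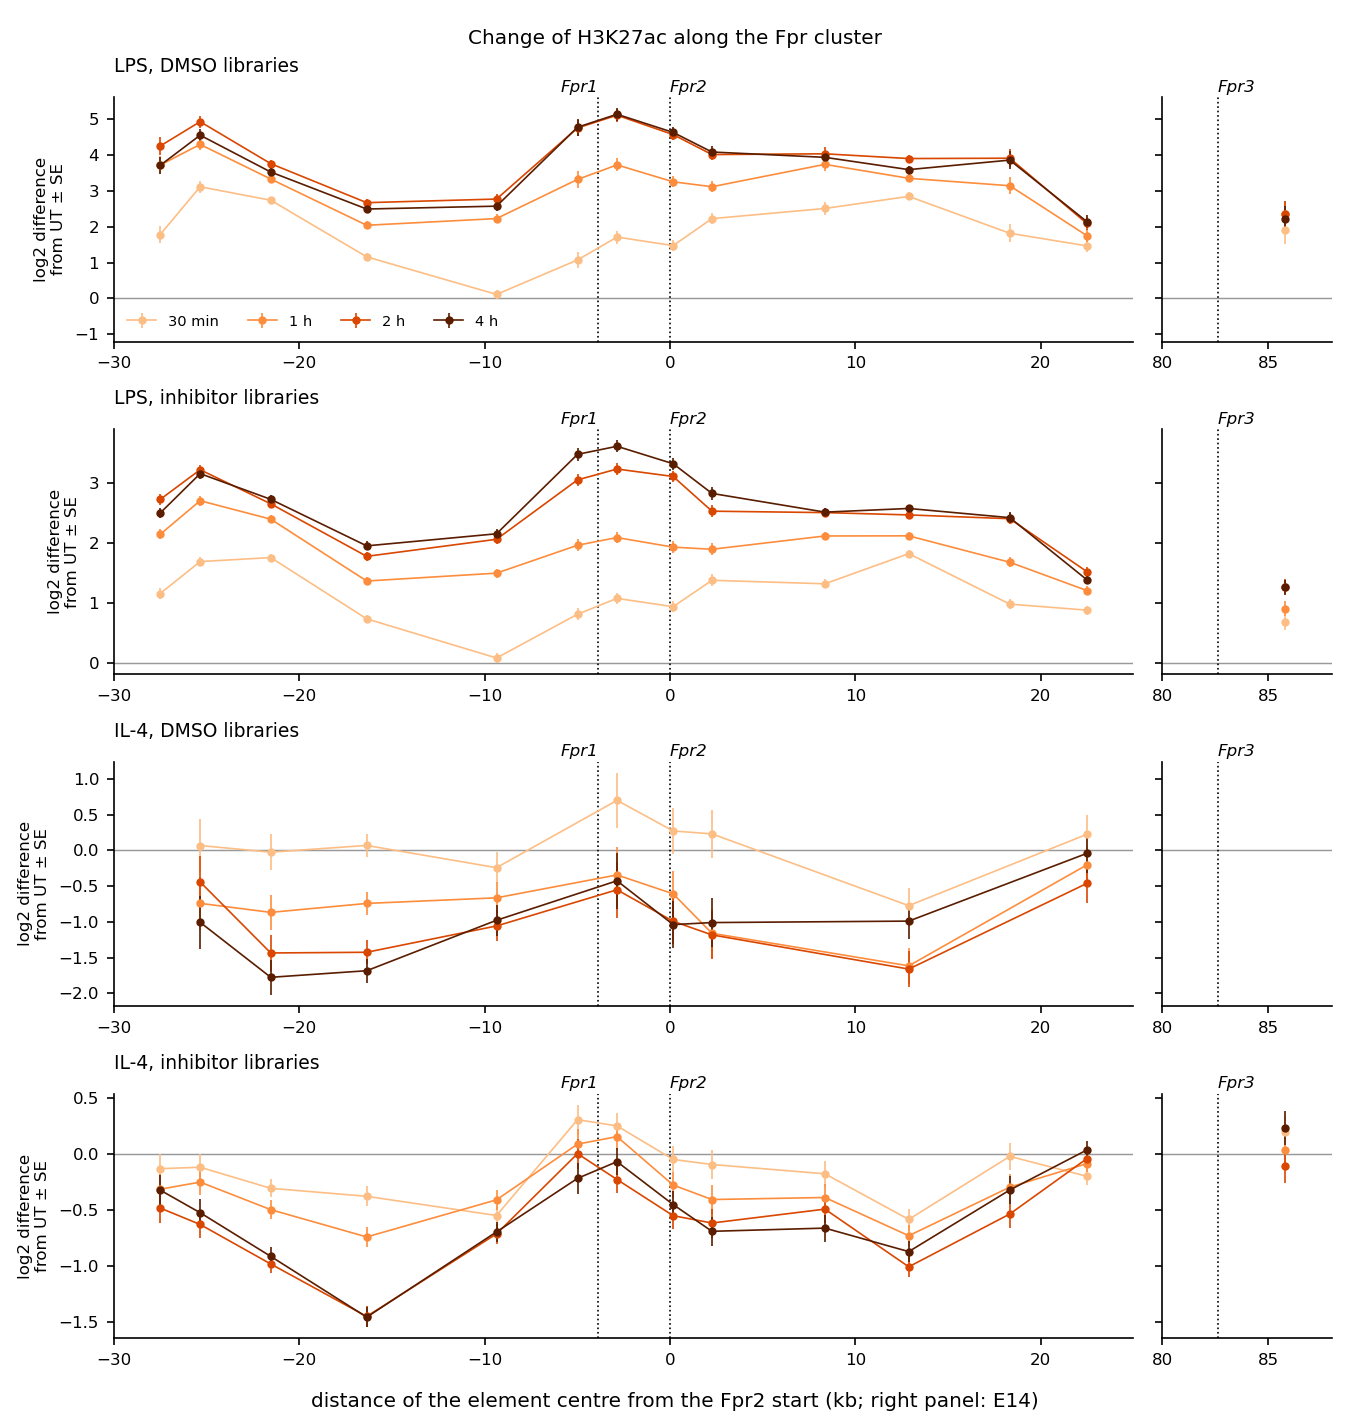
Log2 difference from UT (± SE from the limma fit) of each CRE against the distance of its centre from the Fpr2 start in kb, at 30 min, 1 h, 2 h and 4 h. The rows show LPS and IL-4 in DMSO and in inhibitor libraries, the right panels hold E14, and dotted lines mark the gene starts. The LPS rise at 2 and 4 h is tallest next to the Fpr1 start, whereas at 30 min it is tallest at E2, E3 and E11, and IL-4 differences lie mostly below 0.

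The LPS response was then tested in the inhibitor libraries. They are not the libraries the cluster was picked on, but they repeat the same stimulus in the same kind of cells. Earlier results of these data were also known when the members were chosen. A rise was thus likely beforehand, and the counts and p-values are no independent support for the choice. Over 314 LPS and UT libraries, with the inhibitor as a term in the fit, all 14 members were higher, against 15.4% of 59163 CREs. E11 had a median of 135 in 73 UT libraries (71 to 244), 504.5 in 62 libraries at 30 min (191 to 1000), 605 in 63 at 1 h (196 to 1281), 825 in 59 at 2 h (387 to 1235) and 867 in 57 at 4 h (435 to 1305). The UT and LPS ranges overlapped at 30 min and 1 h and did not from 2 h on. Log2 differences at E11 were 1.82, 2.12, 2.46 and 2.57 (SE 0.06 to 0.07, F-test adjusted p = 8.52e-132), and within each of the 6 runs alone the 2 h difference was 2.07 to 2.95. These values are smaller than those in DMSO, and these libraries also have the lower contrast given above, whose part was not tested. Nothing in the labels tells whether libraries of 1 group come from separate cultures, so these p-values measure the spread between libraries, which may be technical. As given above, these libraries may also have been selected in part on E11.

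The lag of E5 at 30 min was also seen there, but the time of the highest value was not kept throughout. E1 and E2 were again highest at 2 h, and E6 to E9 at 4 h. E3, E4, E5, E10, E11 and E12, highest at 2 h in DMSO, had larger differences at 4 h. At E11 the difference was 2.46 at 2 h and 2.57 at 4 h, and at E4 1.77 and 1.95. E13, highest at 4 h in DMSO, had 1.52 at 2 h and 1.38 at 4 h. These times were not compared by a test. At 30 min E11 was above its own UT value with 58 of 58 inhibitors, and E3, E9 and E13 with 57 each. E5 was above it with only 34 of 58, with a log2 difference of 0.08 ± 0.08 (SE) at 30 min, and then with 57 of 57 at 1 h, when the difference was 1.49 ± 0.08. E5 had a median of 88 in UT and 92 at 30 min, and 257 at 1 h. E7 and E8 gained 1.07 and 0.93 by 30 min, when they were above UT with 53 and 54 of 58 inhibitors. By 4 h they had gained 3.61 and 3.32, and all 55 inhibitors with a pair were above UT at both. E6 reached 3.47 at 4 h. On the log2(value + 5) scale E14 had the smallest response, 1.27 ± 0.13 at 2 h, and was above UT with 50 of 55 inhibitors at that time. Its median was 10 in UT and 36 at 2 h, and the added 5 shrinks differences between such low values.

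**Figure D3:**
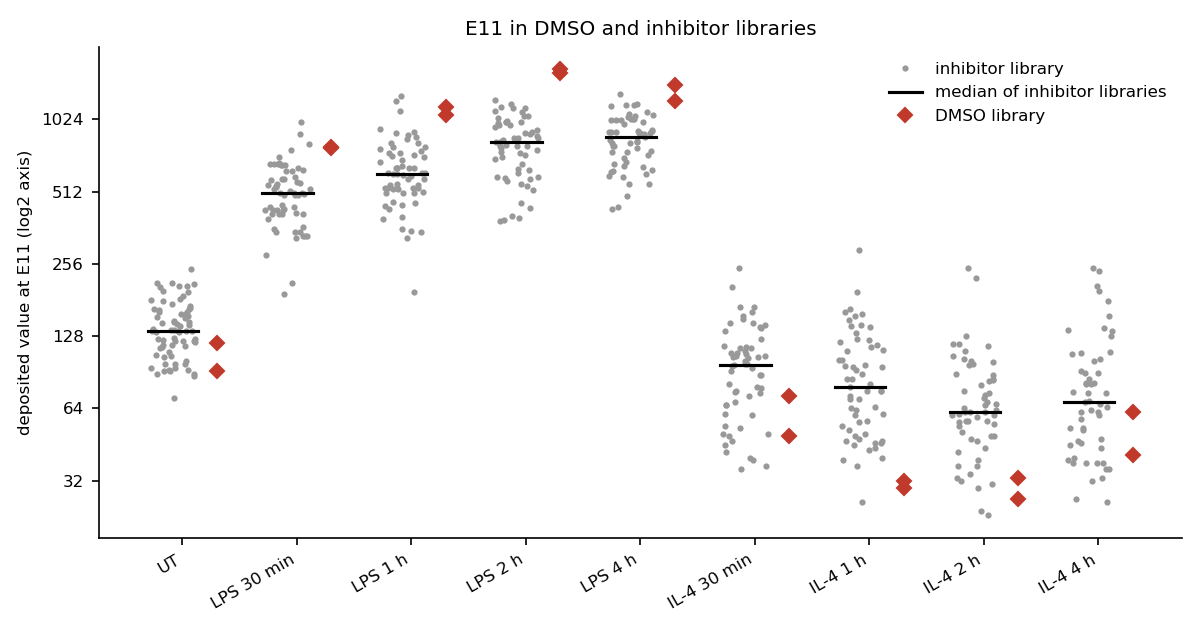
Deposited value at E11 on a log2 axis in each inhibitor library (grey, with the median as a bar) and each DMSO library (red diamonds), by stimulus and time. All LPS libraries from 2 h on lie above every UT library. The DMSO libraries lie above most inhibitor libraries after LPS, and below the inhibitor median after IL-4.

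The cluster was not picked on its IL-4 response, and this response was tested. Earlier results of these data were known when the members were chosen. In DMSO cells 9 of the 14 members had a mean value of at least 10 and entered the test. Of these, 6 were lower after IL-4 (E3, E4, E5, E8, E9 and E11) and none was higher, while over 47018 CREs 11.0% were lower and 13.6% higher. The other 3 tested members, E2, E7 and E13, had adjusted p of 0.0375, 0.0308 and 0.195. The UT libraries are the ones also set against LPS. In bulk chromatin, fewer cells with the mark and less of the mark per cell cannot be told apart.

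E4 fell from 1 h on. Its values were 226 and 201 in UT, 225 and 223 at 30 min, 115 and 137 at 1 h, 82 and 71 at 2 h and 64 and 62 at 4 h. It was level with UT at 30 min and below both UT libraries after that, with a log2 difference of -1.68 ± 0.16 (SE) at 4 h (F-test adjusted p = 1.92e-14). E11 was quicker, with 72 and 49 at 30 min, 32 and 30 at 1 h, 33 and 27 at 2 h and 62 and 41 at 4 h, each pair below both UT libraries (120 and 92). The E11 log2 differences were -0.77, -1.61, -1.66 and -0.99 (SE 0.25, adjusted p = 5.46e-07), so the value at 4 h lay between those of 30 min and 1 h. E3 fell from 117 and 103 to 44 and 18 at 4 h (-1.77 ± 0.25, adjusted p = 4.82e-09). At the Fpr2 start, E8 had 34 and 29 in UT, 38 and 40 at 30 min, 17 and 21 at 1 h, 11 and 16 at 2 h and 10 and 16 at 4 h (-1.04 ± 0.32 at 4 h, adjusted p = 0.000788). E5, over Fpr1, had 114 and 117 in UT and 62 and 51 at 4 h, with its lowest mean at 2 h (log2 difference -1.06 ± 0.22, adjusted p = 7.2e-05). The largest fall of E9 was to 9 and 13 at 2 h, from 32 and 30 (-1.18 ± 0.34, adjusted p = 0.000163). E1, E6, E10, E12 and E14 had at most 17 in any UT or IL-4 library and did not enter the test.

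In 305 IL-4 and UT libraries of inhibitor-treated cells, all 14 members entered the test, and E4 and E11 were lower, against 3.50% of 59150 CREs. None of the 14 was higher, against 5.33%. E4 differed from UT by -0.38, -0.74, -1.45 and -1.46 (SE 0.09, adjusted p = 1.87e-52), and was below UT with 54 of 56 inhibitors at 2 h. E11 differed by -0.58, -0.73, -1.01 and -0.87 (SE 0.09, adjusted p = 1.24e-23), and was below UT with 49 of 56 inhibitors at 2 h. E11 had a median of 135 in UT and 62 at 2 h of IL-4 (23 to 246, 58 libraries), and the ranges overlapped. E3, E5, E8 and E9, which fell in DMSO, had an F-test adjusted p below the limit here too but a largest log2 difference of -0.98, -0.71, -0.55 and -0.69, short of 1. Next to the Fpr1 start, E6 differed by 0.00 ± 0.13 and E7 by -0.23 ± 0.12 at 2 h. E13 and E14 had adjusted p of 0.045 and 0.196. The IL-4 fall at E11 was smaller in 4 runs than in the other 2, from -0.59 (run 2) to -1.66 (run 5) at 2 h, and within runs 1, 2 and 6 alone the adjusted p was 0.0125, 0.0262 and 0.0234.

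Which inhibitors moved these CREs was asked with an additive fit over UT and stimulated libraries, so each value is a mean shift over UT and the 4 times. Against DMSO, 33 of the 58 inhibitors were lower and none was higher at E11 in the LPS fit (adjusted p below 0.05 and a log2 difference beyond 0.5). Over all pairs of a member and an inhibitor, 259 of 812 (31.9%) were lower and 11 (1.35%) higher, while over pairs of all CREs 4.04% were lower and 32.3% higher. In the IL-4 fit, 37 inhibitors were higher and none lower at E11, and 366 pairs of members (45.1%) were higher and 16 (1.97%) lower, against 36.2% and 3.03% of all pairs. All 58 E11 differences were below 0 in the LPS fit and all 58 were above 0 in the IL-4 fit. These counts depend on the scaling: after quantile normalization 7 inhibitors were lower at E11 in the LPS fit and 7 higher in the IL-4 fit, and the member pairs came to 132 lower and 0 higher after LPS, and to 33 lower and 22 higher after IL-4. The members differed: E4 and E5 were lower with 46 inhibitors each after LPS, E12 and E13 with 0 and 2.

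The 5 inhibitors with the lowest E11 values against DMSO in the LPS fit were Omipalisib (-1.24 ± 0.20), Afatinib (-1.21 ± 0.17), AZD8186 (-1.01 ± 0.20), PH797804 (-0.996 ± 0.204) and BGT226 (-0.86 ± 0.20). Omipalisib, a PI3K and mTOR inhibitor, had 134 at E11 in UT and 336, 346, 387 and 435 after LPS. Afatinib, an ERBB inhibitor, had 117 in UT and 202, 479, 582.5 and 543 after LPS. At the other end stood BMS911543 (-0.32), TG100115 (-0.26), GSK461364 (-0.26), MK2461 (-0.23) and Talmapimod (-0.03), none of which passed the test. Talmapimod, a p38 inhibitor, had 166 in UT and 1000, 1110, 1188 and 817 after LPS. The first 3 inhibitors are in run 1, the run of lowest depth and contrast, where the median E11 difference was -0.82, and run 2 had a median of -0.33. In the IL-4 fit the highest E11 values were those of Neratinib (1.496 ± 0.288), Silmitasertib (1.41 ± 0.27), GDC0994 (1.27 ± 0.27), Omipalisib (1.25 ± 0.29) and Lenvatinib (1.2015 ± 0.311). The lowest were ONO4059analogue (0.03), Selumetinib (0.07), AC480 (0.07), VX702 (0.08) and Ruxolitinib (0.21). The run medians of the IL-4 fit went from 0.31 in run 5 and 0.36 in run 4, the runs of highest contrast, to 1.04 in run 1.

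**Figure D4:**
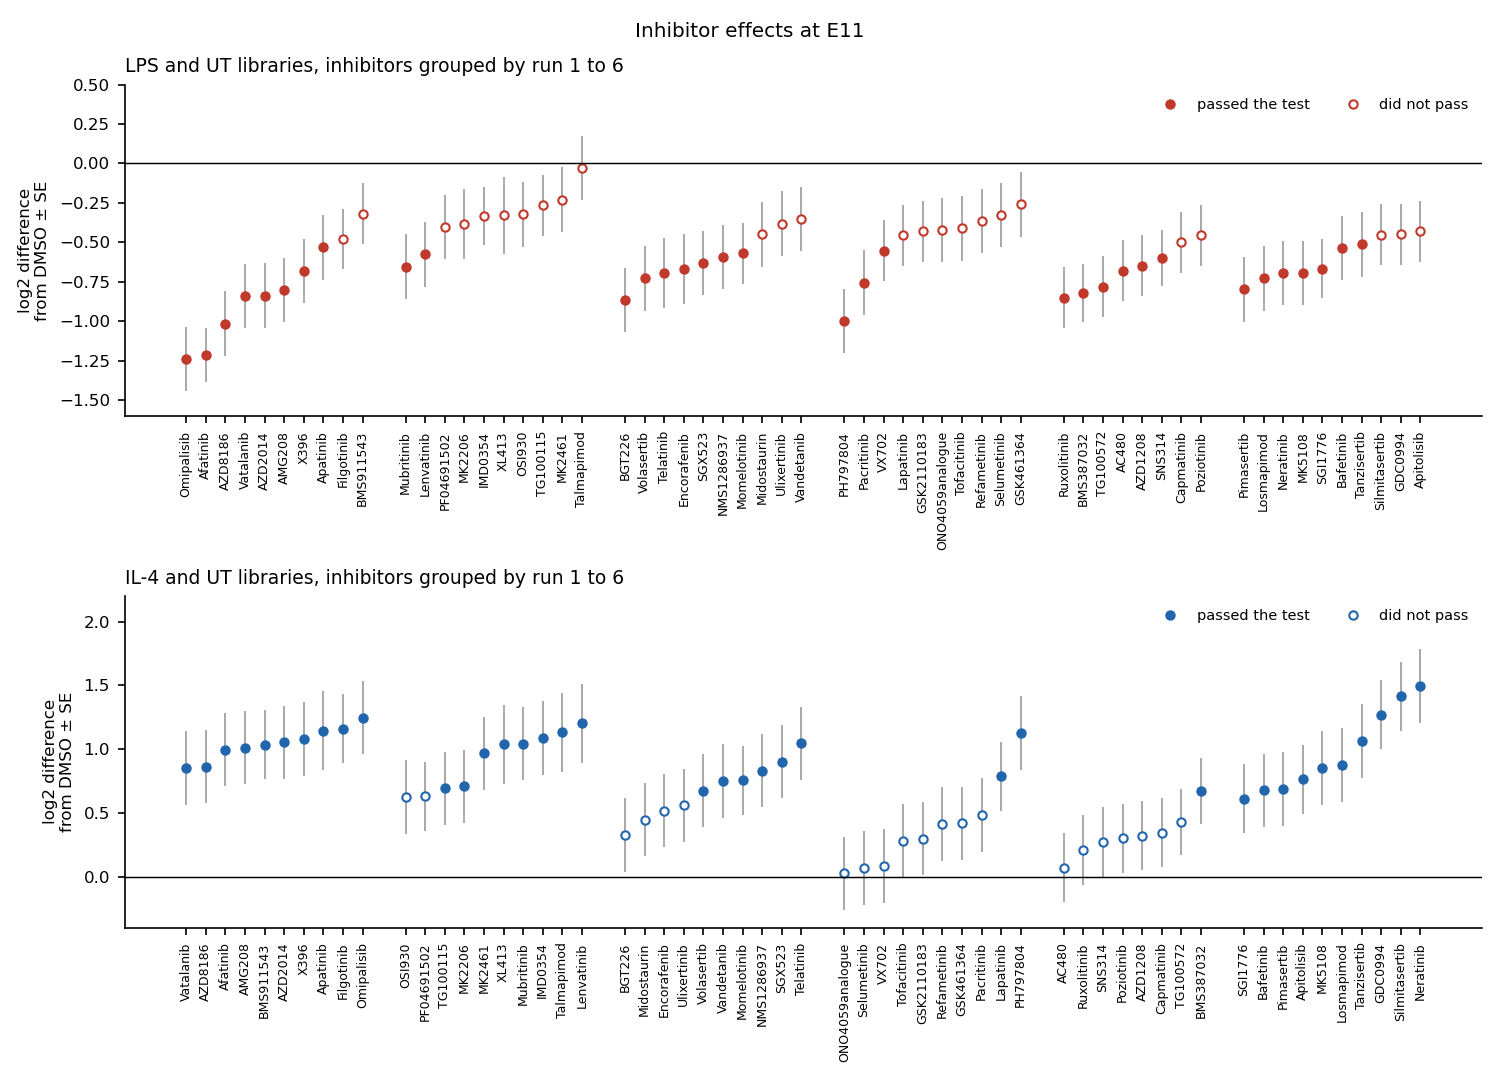
Log2 difference from DMSO (± SE) at E11 for each of the 58 inhibitors, grouped by run 1 to 6 from left to right, in the LPS and UT fit (red) and the IL-4 and UT fit (blue). Filled points passed the test. All LPS points lie below 0 and all IL-4 points above 0, and the level shifts between runs.

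Setting each inhibitor against the other inhibitors of its run avoids that shift. On this measure 20 of 812 member pairs (2.46%) were lower and none was higher in the LPS fit, against 0.406% and 0.742% of all pairs. The 20 came from Omipalisib (5 members), Pimasertib (5), BGT226 (3) and PH797804 (7). The shares of all CREs that were lower with each of these inhibitors alone are not given. Pimasertib, a MEK inhibitor, was lower at E2, E3, E4, E8 and E9. At E8, over the Fpr2 start, it had 36 in UT and 35, 10, 321 and 371 after LPS, whereas the other inhibitors of the run had medians of 57, 105, 188, 418.5 and 514. It was below all of them up to 2 h and within their range at 4 h (log2 difference -1.29 ± 0.26, adjusted p = 0.00132). At E4 it had 86 in UT and 116, 125, 416 and 358 after LPS, below all the others of its run at each time (-1.07 ± 0.19, adjusted p = 0.000331). Refametinib and Selumetinib, also MEK inhibitors but in another run and at other concentrations, had 0.07 ± 0.26 and -0.07 ± 0.26 at E8 and 0.07 ± 0.19 and 0.10 ± 0.19 at E4. The ERK inhibitors GDC0994 and Ulixertinib had 0.29 ± 0.24 and 0.34 ± 0.26 at E8. Over all Pimasertib libraries the median contrast was 16.1 and the median depth 1.97e+06 reads, above the run medians of 13.1 and 1.72e+06 reads. These medians do not describe its 1 h LPS library, which had 10 at E8 (others 155 to 253) and 8 at E9 (others 97 to 186). At E9 Pimasertib was within the range of the others in UT and at 2 and 4 h, and below it at the earlier LPS times. The part of the 1 h library in these calls was not tested.

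Omipalisib was lower at E2, E4, E7, E8 and E10. At E8 it had 27 in UT and 12, 123, 123 and 136 after LPS, where the others of its run had medians of 33, 82, 175, 312 and 423 (-1.15 ± 0.26, adjusted p = 0.00198). At E7 it had 36 at 4 h, where the others had 136 to 489 (-1.14 ± 0.26, adjusted p = 0.00272). At E11 its difference from the run was -0.49 ± 0.18 (adjusted p = 0.0742). Its 4 LPS libraries had contrasts of 5.21 to 7.56, below the run median of 11.2, and the part of this was not tested. BGT226, also a PI3K and mTOR inhibitor, was lower at E4, E5 and E10. At E5 it had 47 in UT and 57, 92, 184 and 165 after LPS, below each of the other inhibitors of its run at every time (-1.11 ± 0.21, adjusted p = 4.41e-05).

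PH797804, a p38 inhibitor, was lower at E3, E4, E5, E6, E10, E11 and E13 in the LPS fit, and was the only inhibitor called against its run at E11 in this fit (-0.55 ± 0.18, adjusted p = 0.00587). No inhibitor was lower at E11 after quantile normalization, and 2 were without the libraries with the suffix b in their titles. At E11 it had 98 in UT and 329, 653, 460 and 622 after LPS, and the others of its run had medians of 115, 621, 712, 1009 and 1022. Its 30 min LPS library had an estimated 173023 reads, the fewest of the series, and E13 is listed at 0 in it. Without that library E4 (-0.52), E5 (-0.56) and E11 (-0.51 ± 0.19, adjusted p = 0.0192) were still lower, E3, E6, E10 and E13 no longer passed, and E14 was higher (1.39 ± 0.36, adjusted p = 0.000756). Its other 3 LPS libraries had contrasts of 10.3, 4.81 and 3.37, where the run median was 35.1.

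In the IL-4 fit 13 member pairs (1.60%) were higher than their run and 3 lower, against 0.848% and 0.400% of all pairs. All 13 higher pairs were those of PH797804, at every member except E13. The share of all CREs that were higher with PH797804 alone is not given, so these 13 have no background of their own. After quantile normalization 3 pairs were higher and 0 at E11. At E11 it had 104, 162, 119 and 101 after IL-4, where the others had medians of 50, 70, 59 and 38 (0.81 ± 0.25, adjusted p = 0.0048). At E7 it had 82, 42, 47 and 31, above all 9 others at each time (1.23 ± 0.31, adjusted p = 0.000716). Its 4 IL-4 libraries had contrasts of 7.26 to 11.2, and what part this has in the weak CREs of the cluster was not tested. The 3 lower pairs were BGT226 at E5 (-0.84 ± 0.24), PF04691502 at E13 (-0.73 ± 0.19, with each value within the range of its run) and Pimasertib at E4 (-1.23 ± 0.23, adjusted p = 0.000188). Pimasertib at E4 had 50, 34, 34 and 29 after IL-4, below all others of its run at each time.

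**Figure D5:**
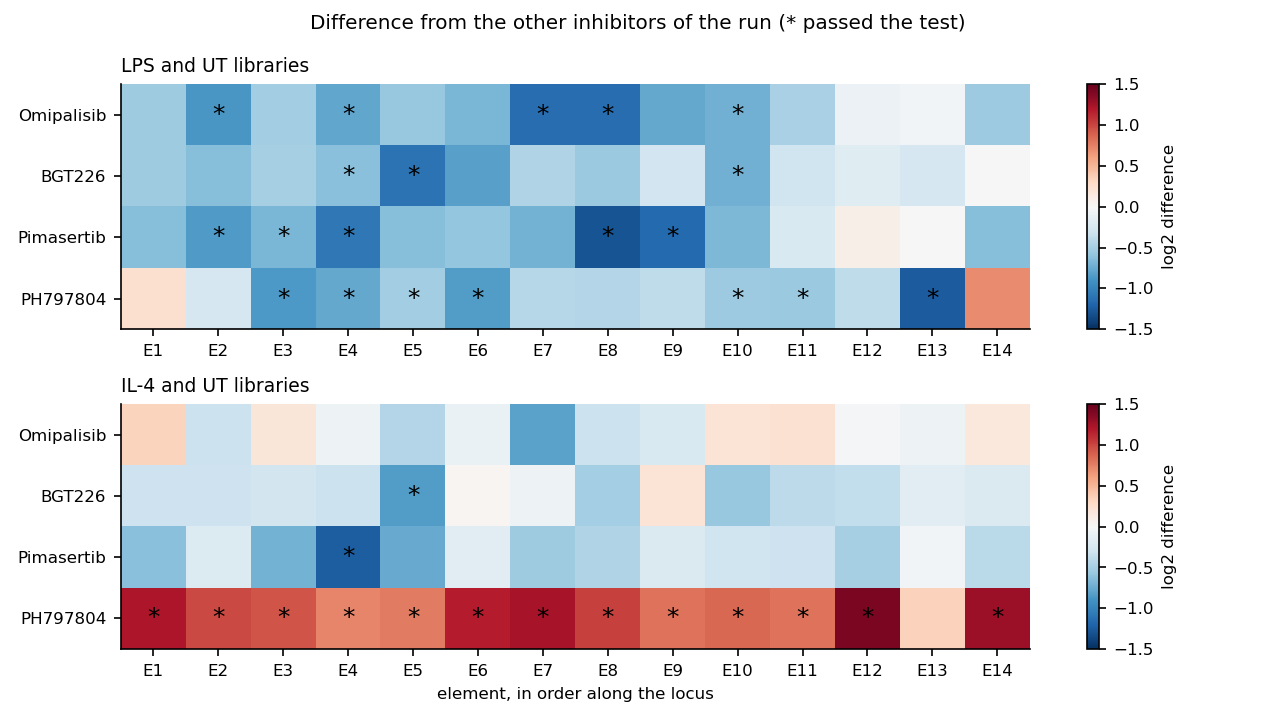
Log2 difference of 4 inhibitors from the other inhibitors of their run at E1 to E14, in the LPS and UT fit (top) and the IL-4 and UT fit (bottom), blue for lower and red for higher. Asterisks mark pairs that passed the test. PH797804 is higher at 13 of 14 CREs in the IL-4 fit, and E4 is lower with all 4 in the LPS fit.

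Inhibitors of 1 signalling class were compared with all others at E11, on the mean log2 value over the stimulated times after centring within the run. Class labels were permuted exactly within runs, in 12 two-sided tests, and none passed (smallest adjusted p = 0.412). The PI3K and mTOR inhibitors were the lowest class after LPS, at -0.21 ± 0.25 (SD, n = 5) against 0.02 ± 0.21 for the other 53 (exact permutation p = 0.0442, adjusted p = 0.412): Omipalisib -0.55, BGT226 -0.30, PF04691502 -0.23, AZD2014 -0.11 and Apitolisib 0.13. The 4 p38 inhibitors stood far apart, with PH797804 at -0.60, Losmapimod -0.21, VX702 -0.03 and Talmapimod 0.33. Of the 6 JAK inhibitors, BMS911543 (0.48), Filgotinib (0.36), Tofacitinib (0.16) and Momelotinib (0.02) were above 0 and Ruxolitinib (-0.18) and Pacritinib (-0.31) below it. Among MEK, ERK and BRAF inhibitors the values ran from Pimasertib (-0.23) and Encorafenib (-0.09) to Refametinib (0.17), GDC0994 (0.17), Selumetinib (0.18) and Ulixertinib (0.32). AZD8186 (-0.24), GSK2110183 (0.05), MK2206 (0.08) and TG100115 (0.24) make up the isoform-selective PI3K and AKT class, and IMD0354 (0.02) and Tanzisertib (0.07) the IKK2 and JNK class. After IL-4 the class differences from the rest lay between -0.24 (PI3K and mTOR) and 0.17 (p38), also without a call.

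The receptors' pathway was described in the same fits. Of 49 genes of ligands, G protein subunits, effectors, desensitization, the NADPH oxidase and other chemoattractant receptors, 44 had a CRE over their start. The shares of all CREs set beside them below also cover CREs away from gene starts. No share over gene starts alone is given, so a difference from these shares is not read as a trait of the pathway. After LPS in DMSO cells 7 of the 44 were higher and 16 lower, with a median largest log2 difference of -0.34, against 29.0% higher and 24.6% lower of all CREs. In inhibitor libraries 4 were higher and 13 lower, against 15.4% and 13.5%. Of 5 ligand genes, 2 rose and 2 fell. Saa3, an acute-phase serum amyloid A, had 48 and 35 in UT and 1463 and 1245 at 4 h of LPS (log2 difference 4.88 ± 0.19). Camp, the cathelicidin precursor, had 5 and 4 in UT and 171 and 120 at 4 h (3.97 ± 0.27). In both, the 4 h libraries were far above UT. Alox5ap, which serves leukotriene and lipoxin synthesis, fell from 291 and 282 to 41 and 32 at 2 h (-2.82 ± 0.22). Cxcr4, the CXCL12 receptor, fell from 522 and 541 to 85 and 72 at 2 h (-2.69 ± 0.16). Among the desensitization genes, 5 of 8 fell, with Arrb1, a beta-arrestin, at -2.41 ± 0.18 and Rgs2, a regulator of G protein signalling, at -2.32 ± 0.19, while Grk3, a receptor kinase, rose (1.93 ± 0.18). Of 5 NADPH oxidase genes 1 rose and 1 fell, and the one that rose was Cybb, the catalytic subunit (1.52 ± 0.16). After IL-4 in DMSO cells, 2 of 43 tested genes fell and none rose, against 11.0% lower and 13.6% higher of all CREs: Ccr1, a chemokine receptor, from 151 and 152 to 57 and 40 at 4 h (-1.57 ± 0.19) and Alox5ap to 138 and 143 at 30 min (-1.0025 ± 0.137). In the inhibitor libraries none of 44 genes was called after IL-4 with limma, against 3.50% lower and 5.33% higher of all CREs.

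Over the 18 DMSO libraries, the CREs over 1 Mb away whose values followed E11 most closely were near Tex12 (chr9:50559844-50561631, Pearson r = 0.994), Cybb (chrX:9470384-9472028, r = 0.992), Mt1 (chr8:94194243-94195886, r = 0.991), Marcks (chr10:37227278-37228879, r = 0.991) and Aoah (chr13:20786310-20788935, r = 0.991). The gene is the one with the nearest start, 89150 bp away for Marcks. Of 50587 CREs compared, 2964 had r above 0.9 with E11, and all points share the same libraries and stimuli. The other members had r from 0.893 (E6) to 0.984 (E10) with E11, and E5 had the second lowest value (0.908).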

How the data were processed

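Reads were single-end. After adapter removal, the authors cut them to 51 bases, aligned them to mm10 with ShortStack and counted those around ATAC-seq summits. Bowtie and SAMtools are named in the submitters' processing notes, without versions. The deposited values are counts that the authors multiplied by a scaling factor from invariant peaks and rounded, so they were treated as a score and no count model was used. CRE widths vary (median 1652 bp). The concentrations of the inhibitors differ and were not used.

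The members and gene lists were chosen with earlier results of these data known. Reads per library were estimated from the spacing of the values (the value of 1 read), and contrast is the median value of the 10% of CREs with the highest mean over all libraries divided by that of the lowest 10%. Runs were read from the column order of the table and used only to group libraries. The labels name no batch, so what the runs stand for is not known.

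Differences were tested on the whole table with limma 3.58.1 in R 4.3.3 (trend, log2(value + 5), mean value of at least 10, Benjamini-Hochberg). A time course was called at an F-test adjusted p below 0.01 and a largest log2 difference beyond 1, and an inhibitor at an adjusted p below 0.05 and 0.5. Such differences understate the change of low values. Each DMSO group holds 2 libraries, and most inhibitor groups hold 1. Class tests were exact permutations in Python 3.11.15. The scripts were tested on simulated data. Every member is accounted for. Named are, for the pathway, the 2 largest rises and falls among called genes per comparison, and, for inhibitors, the 5 lowest and 5 highest at E11 and all class members. Arrb1, Rgs2, Grk3, Cybb, Pimasertib and BGT226 beyond E11 were named after their values were seen. Promoter sequences are from RefSeq (GRCm38.p6, 3 of 3 genes matched). The replicate numbers do not pair the libraries, as the closing section shows. Alternatives were another pseudocount, quantile normalization, no filter, other thresholds, other references, single runs, and fits without single libraries or without those with the suffix b.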

Additional observations from a re-analysis of the deposited data

How the results depend on the processing

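Of the alternatives, a pseudocount of 20 left 3 of 6 members lower after IL-4 in DMSO and 7569 of 11608 CREs called in all, and a log2 threshold of 0.5 gave 19669. Leaving out 1 DMSO library gave 5 to 6 members lower, 0 higher and 10199 to 11862 CREs called. The E11 difference at 2 h of LPS (3.89) was 3.72 with a pseudocount of 20, 3.77 after quantile normalization and 3.71 to 4.07 without 1 library. In the inhibitor libraries, the 2 members lower after IL-4 became 1 with a pseudocount of 20, with quantile normalization and without the suffix b libraries, and 0, 1, 4, 4, 6 and 1 in runs 1 to 6 alone.

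Quantile normalization gave 132 lower and 0 higher pairs after LPS against DMSO (E11: 7 lower), and 33 lower and 22 higher after IL-4 (E11: 7 higher). With the mean of the 58 inhibitors as reference, the LPS pairs were 41 lower and 17 higher (E11: 2 lower, 1 higher) and the IL-4 pairs 27 higher (E11: 2 higher, 1 lower). A log2 threshold of 1 gave 73 lower and 3 higher pairs after LPS (E11: 3 lower), and 2 lower pairs and 18 higher at E11 after IL-4. Without DMSO replicate 1 or replicate 2, the LPS pairs were 187 to 221 lower and 2 to 5 higher (E11: 22 to 36 lower, 0 higher), and the IL-4 pairs 10 lower and 270 to 298 higher (E11: 20 to 38 higher, 0 lower); the 20 at E11 came without replicate 2 and the 5 higher LPS pairs without replicate 1.

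Against the run, 1 LPS pair was higher with a pseudocount of 20, without the suffix b libraries and without the 30 min LPS library of PH797804, an alternative chosen after seeing the data. At E11 after LPS, quantile normalization gave 0 inhibitors lower and the fit without the suffix b libraries gave 2. After IL-4, quantile normalization gave 3 higher pairs and 0 at E11. Uncalled class differences turned sign after LPS with quantile normalization for MEK, ERK and BRAF (-0.0286), p38 (0.0273) and isoform-selective PI3K and AKT (-0.0135), and without centring on runs for p38 after LPS (0.0102), and JAK (-0.0749) and PI3K and mTOR (0.0435) after IL-4. The lowest adjusted p of a class under these settings was 0.21. The cause of these changes was not tested.

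The replicate numbers do not pair the libraries: over 36 pairs of DMSO groups, deviations from the group means had correlations of -0.087 to 0.066 (median 0.004). With the replicate block, 6 members were lower after IL-4, as without it. With a window of 10 kb the cluster has 7 members and with 50 kb 17. Depth limits E1, E6, E10, E12 and E14, at most 17 in DMSO UT and IL-4 libraries, and inhibitor groups of 1 library have no replicate of their own.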
